A study of Mus musculus with 8 samples.

Results

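Ccne1 and Ccne2 encode cyclin E1 and cyclin E2, which bind the kinase CDK2 and drive cells from G1 into S phase. They were followed here in mouse pre-B cells in which the miR-15 family of microRNAs was blocked with a sponge, before and after removal of the growth factor IL-7. The members were the probes that the array's annotation assigns to either gene. These were 3 of 55681 probes that are not controls, 2 for Ccne1 and 1 for Ccne2. Both Ccne1 probes passed the filter on dim signal, and the Ccne2 probe did not, so the comparisons between groups are of Ccne1 alone.

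The cells were wk3, a pre-B cell line with the genotype SLP-65-/- in all 4 groups. SLP-65, the product of Blnk, is an adaptor protein that carries the pre-B cell receptor's signal. Cells received a retroviral vector with either a scrambled sponge, the control, or a sponge directed at the miR-15 family (miR-15a and miR-15b, with miR-16, miR-195, miR-322 and miR-497), and transduced cells were selected with puromycin. Such a sponge offers a microRNA decoy sites and so keeps it from its own targets. Each kind of cell was grown in excessive IL-7 from a J558L cell supernatant, or for 36 h without IL-7, a step meant to start pre-B cell differentiation. The 4 groups were scrambled with IL-7, sponge with IL-7, scrambled without IL-7 and sponge without IL-7, each with 2 replicates from separate experiments with separately made clones. All groups are thus one cell line that lacks SLP-65, and no untransduced cells were analysed here.

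Cyclin E is transcribed late in G1, when E2F factors are released from the retinoblastoma protein and its relatives. Cyclin E-CDK2 then phosphorylates those same pocket proteins further, along with proteins of replication origins, centrosomes and histone gene transcription, and the complex ends with the phosphorylation and ubiquitin-dependent destruction of cyclin E through FBXW7. Ccne1 is a published target of the miR-15 family, whose members pair through their seed, bases 2 to 8, with sites in messenger RNAs and lower their level or translation. In B cell precursors, IL-7 is the main signal for proliferation, and cells that lose it leave the cell cycle and proceed with light chain gene rearrangement.

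The sponge's targets are shown to make the shared seed visible. The mature sequences are from RefSeq (GRCm38.p6), 5′ to 3′, with the seed in capitals.
miR-15a-5p: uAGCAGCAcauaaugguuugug
miR-15b-5p: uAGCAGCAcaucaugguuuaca
miR-16-5p: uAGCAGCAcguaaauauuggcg
miR-195a-5p: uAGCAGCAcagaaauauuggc
miR-322-5p: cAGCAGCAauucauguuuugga
miR-497a-5p: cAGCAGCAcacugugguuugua
The seed AGCAGCA was the same in 6 of 6 family members, and 10 of the 1679 mature mouse miRNAs in the table have it. The family comes from several places in the genome: miR-15a from chr14:61632075-61632096 on the minus strand, miR-15b from chr3:69009775-69009796 on the plus strand, miR-195a from chr11:70235062-70235082 and miR-497a from chr11:70234730-70234751 on the plus strand, and miR-322 from chrX:53054306-53054327 on the minus strand. The miR-16 sequence is encoded in both clusters of miR-15, at chr14:61631936-61631957 and chr3:69009918-69009939.

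The 2 Ccne1 probes, both on the minus strand of chromosome 7 in the mm9 build of the array's annotation, differ in that one of them contains a match to this seed. The probe nearer the 3′ end of the transcript, A_51_P408946, has 60 bases, of which the annotated interval chr7:38882937-38882960 covers 24. The upstream probe, A_66_P125327, lies 2614 bp away at chr7:38885574-38885633. The stretch of the 3′ probe around its match is given with the 8-base site TGCTGCTA in capitals, and the whole upstream probe follows.
Ccne1 3′ probe, 30 bases around the site: attttgtaaggTGCTGCTAtgtctatcaat
Ccne1 upstream probe: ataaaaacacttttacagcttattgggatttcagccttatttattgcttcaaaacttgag
The site consists of the reverse complement of the seed, TGCTGCT, followed by A, and occupies bases 37 to 44 of the 3′ probe. The upstream probe and the Ccne2 probe have 0 matches. Over the whole array the 7-base match occurs in 456 probes (0.819%) and the 8-base site in 79 (0.142%). No transcript annotation was used here, so the exon or untranslated region of each probe is not assigned.

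The probe for Ccne2, A_65_P10671 at chr4:11131423-11131482 on the plus strand, was not well above background on any of the 8 arrays. Its processed signal was 6.27 and 4.85 in scrambled cells with IL-7 (replicates 1 and 2), 1.96 and 2.05 in sponge cells with IL-7, 1.90 and 1.82 in scrambled cells without IL-7, and 1.98 and 1.89 in sponge cells without IL-7. Only the scrambled cells with IL-7 had a signal that the scanner software marked as positive and significant. On the other 6 arrays the value was a substitute that the software writes for spots at background, so no fold and no test are given for Ccne2. The GC content of this probe is 15%, against a median of 43.3% for all probes. Of the 27 probes with a GC content at or below it, 1 (3.7%) was kept by the filter on dim signal, against 55.6% of all probes. Whether base composition limits this probe was not tested, and the values do not show that Ccne2 RNA was absent.

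The arrays were alike in overall signal. Between 50.6% and 56.6% of the 59305 spots on an array that are not controls were well above background, an array's 75th percentile lay at 297 to 410, the local background was 17 to 20, and 0 spots were saturated. All 8 arrays lay on 1 slide, where the arrays with IL-7 filled one line and those without the other, and each construct had its own positions, so slide position cannot be told apart from IL-7 or from the construct. All 12 markers of B cell precursors were well above background on all 8 arrays. The Blnk probe was well above background on 8 of 8 arrays, at log2 levels of 7.16 to 8.24 relative to the array's 75th percentile, and where it lies relative to the deletion is not known here. Of 6 T cell markers, 2 were above background on all 8 arrays, Cd3d and Cd8a on some and Cd3g and Cd8b1 on 0. Their summed level relative to the 75th percentile was 4.1 to 5.27. Of 3 NK cell markers, 2 were above background on all 8 arrays and Ncr1 on 0 (sum 0.59 to 0.78). The erythroid markers Hba-a1 and Klf1 were above background on some arrays. Of 6 myeloid markers, 3 were above background on all arrays. Their summed level over all 6, relative to the 75th percentile, was 16.0 and 21.4 in scrambled cells with IL-7, 14.0 and 18.1 in sponge cells with IL-7, 27.1 and 27.5 in scrambled cells without IL-7, and 17.8 and 18.5 in sponge cells without IL-7. The sum was highest in the group where Ccne1 was lowest, and its part in the results for Ccne1 was not tested.

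Ccne1 was the transcript of the pair that could be measured, and it was high in 3 of the 4 groups. The 3′ probe, the brighter of its probes and the one used for the gene, read 5847 and 6981 in scrambled cells with IL-7 (processed signal, replicates 1 and 2). In sponge cells with IL-7 it read 10353 and 11207. Without IL-7 it read 906 and 480 in scrambled cells but 7141 and 6822 in sponge cells. The sponge cells had therefore the highest signal of all with IL-7, and without IL-7 they stayed near the level of scrambled cells that still had it. The scrambled cells without IL-7 lay far below every other array. The upstream probe gave the same order for the highest and the lowest group, with 420 and 444 in scrambled cells with IL-7, 600.3 and 608 in sponge cells with IL-7, 68.0 and 36.8 in scrambled cells without IL-7, and 425 and 379 in sponge cells without IL-7. On both probes the ranges of the middle groups overlapped in this unscaled signal.

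**Figure D1:**
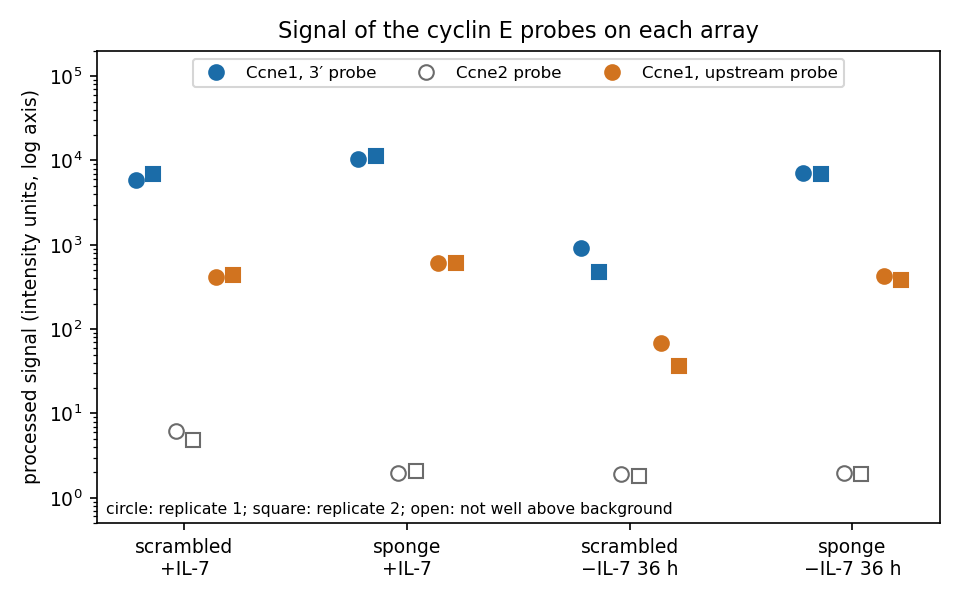
Processed signal (intensity units, log axis) of the 3 cyclin E probes on each of the 8 arrays, by group, with circles for replicate 1, squares for replicate 2 and open symbols for values not well above background. Both Ccne1 probes are lowest in scrambled cells without IL-7 (906 and 480 on the 3′ probe, 68.0 and 36.8 on the upstream probe), and the Ccne2 probe stays at or below 6.27.

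On the log2 scale relative to each array's 75th percentile, Ccne1 averaged 4.25 ± 0.07 (SD, n = 2) in scrambled cells with IL-7, 4.89 ± 0.10 in sponge cells with IL-7, 0.88 ± 0.70 in scrambled cells without IL-7 and 4.10 ± 0.07 in sponge cells without IL-7. Ordered by mean, the groups ran from sponge with IL-7 over scrambled with IL-7 and sponge without IL-7 to scrambled without IL-7. Sponge cells without IL-7 and scrambled cells with IL-7 differed by −0.15 ± 0.30 (log2 ± SE, limma adjusted p = 0.768), which was not called. The SE rests on the spread of all 4 groups, which was widest in scrambled cells without IL-7. The scaled arrays of the 2 groups did not overlap. Scrambled cells with IL-7 had 4.30 and 4.20 on the 3′ probe and 0.50 and 0.23 on the upstream probe. Sponge cells without IL-7 had 4.15 and 4.06, and 0.08 and −0.11. The share of all genes without overlap was not counted. In this comparison 14% of genes were called. It was added after the data were seen, for groups next to each other in mean, and does not show that their levels are equal. The arrays measured bulk RNA, so fewer cells with Ccne1 RNA and less Ccne1 RNA per cell cannot be told apart.

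Removing IL-7 from control cells lowered Ccne1. In scrambled cells the log2 difference was −3.37 ± 0.30, a 10.4-fold fall (95% confidence interval −4.12 to −2.62, limma adjusted p = 0.000574). It was the 10th largest fall among 21316 genes. In this comparison 48.1% of genes were called, and 27.4% of all genes were called lower, so a call as such was common and the size of the difference was not. The upstream probe fell 9.22-fold (log2 difference −3.21 ± 0.31, limma adjusted p = 0.000779), where 24.8% of kept probes were called lower. With normexp background correction, which adds an offset of 50 to the signal, the log2 difference of this dimmer probe was −2.24, still called.

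The 2 arrays of scrambled cells without IL-7 stood apart from each other in Ccne1 more than those of any other group. Replicate 1 was above replicate 2 by 1.00 on the log2 scale, and only 0.915% of genes had a gap at least as large in that group. In the other groups the gap was between −0.14 and 0.09. Genes of S phase moved with it: 19 of 19 were higher in replicate 1, by a median of 0.44 (0.14 to 0.86), while the median gap over all genes was 0. Elsewhere 16 of 19 were higher in replicate 1 in scrambled cells with IL-7 (median 0.14). In sponge cells 4 of 19 were with IL-7 (−0.06) and 12 of 19 without (0.09). The share of all genes higher in replicate 1 was not counted. Without replicate 1 of scrambled cells without IL-7 the fall of Ccne1 was −3.87, and without its replicate 2 it was −2.88.

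In sponge cells the same removal of IL-7 gave a smaller difference that did not pass the test. Ccne1 was lower by 1.73-fold (log2 difference −0.79 ± 0.30, 95% confidence interval −1.54 to −0.04, limma adjusted p = 0.121), and 23.2% of genes were called, with 15.2% of all genes called lower. All 4 arrays of sponge cells were ordered by IL-7, with no overlap. The share of all genes ordered in this way was not counted, so this order is a description only. The call depended on which arrays entered the estimate of the spread. With only the 4 sponge arrays in the fit, the limma adjusted p of the same difference was 0.023, and without replicate 1 or without replicate 2 of scrambled cells without IL-7 it was 0.0136 each time. With a variance trend it was 0.0429. In 16 of 20 alternatives the difference was not called. It was −0.56 with quantile normalization (limma adjusted p = 0.286) and −0.57 in the deposited value table (limma adjusted p = 0.283). The upstream probe differed by −0.75 ± 0.31 (limma adjusted p = 0.146), where 12.5% of kept probes were called lower. It was called with normexp (−0.68, limma adjusted p = 0.0128) and without either replicate of scrambled cells without IL-7 (limma adjusted p = 0.0307 each).

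The difference between these withdrawal effects was itself tested. The withdrawal effect in sponge cells minus that in scrambled cells was 2.58 ± 0.43 on the log2 scale (95% confidence interval 1.52 to 3.64, limma adjusted p = 0.0354), where 5.27% of genes were called, with 4.32% of all genes called higher. The upstream probe gave 2.45 ± 0.43 (limma adjusted p = 0.044), with 3.41% of kept probes called higher, and 1.55 with normexp, still called. Ccne1 ranked 18th of 21316 genes in this difference. Equal replicate numbers were taken to mark the same experiment, which the sample titles do not state. With the experiment so taken as a block, the limma adjusted p was 0.0529 and 0 genes were called, although 5105 had an unadjusted p under 0.05. The call was also lost in 6 of the 8 fits that left out 1 array. The adjusted p was 0.0801 without scrambled with IL-7 replicate 1, 0.122 and 0.0882 without sponge with IL-7 replicate 1 or 2, 0.0631 without scrambled without IL-7 replicate 2, and 0.132 and 0.108 without sponge without IL-7 replicate 1 or 2. The value stayed between 2.09 and 3.08 throughout.

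Comparing constructs directly, Ccne1 was higher in sponge cells once IL-7 was gone. Without IL-7 the log2 difference between sponge and scrambled cells was 3.22 ± 0.30, or 9.35-fold (95% confidence interval 2.48 to 3.97, limma adjusted p = 0.00143), the 18th largest rise. Here 32.1% of genes were called, with 16.8% of all genes called higher. The upstream probe rose 7.08-fold (2.82 ± 0.31, limma adjusted p = 0.00225), with 15.4% of kept probes called higher, and with normexp its difference was 1.95, still called. This comparison shares the arrays of scrambled cells without IL-7 with the withdrawal in scrambled cells, so the values are not independent of each other.

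With IL-7 present, both sponge arrays were above both scrambled arrays, an order whose share among all genes was not counted. The difference was not called. It was 0.64 ± 0.30 on the log2 scale, or 1.56-fold (95% confidence interval −0.11 to 1.39, limma adjusted p = 0.307). In this comparison 1.13% of genes were called, with 0.314% of all genes called higher, and Ccne1 ranked 970th among the rises. The upstream probe differed by 0.37 ± 0.31 (limma adjusted p = 0.528), and 0.187% of kept probes were called higher. Averaged over both IL-7 conditions, Ccne1 was 3.82-fold higher in sponge cells (1.93 ± 0.21, limma adjusted p = 0.00248), where 31.7% of genes were called, with 17% of all genes called higher. The upstream probe was 3.03-fold higher (1.60 ± 0.22, limma adjusted p = 0.00469), with 15.7% of kept probes called higher.

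**Figure D2:**
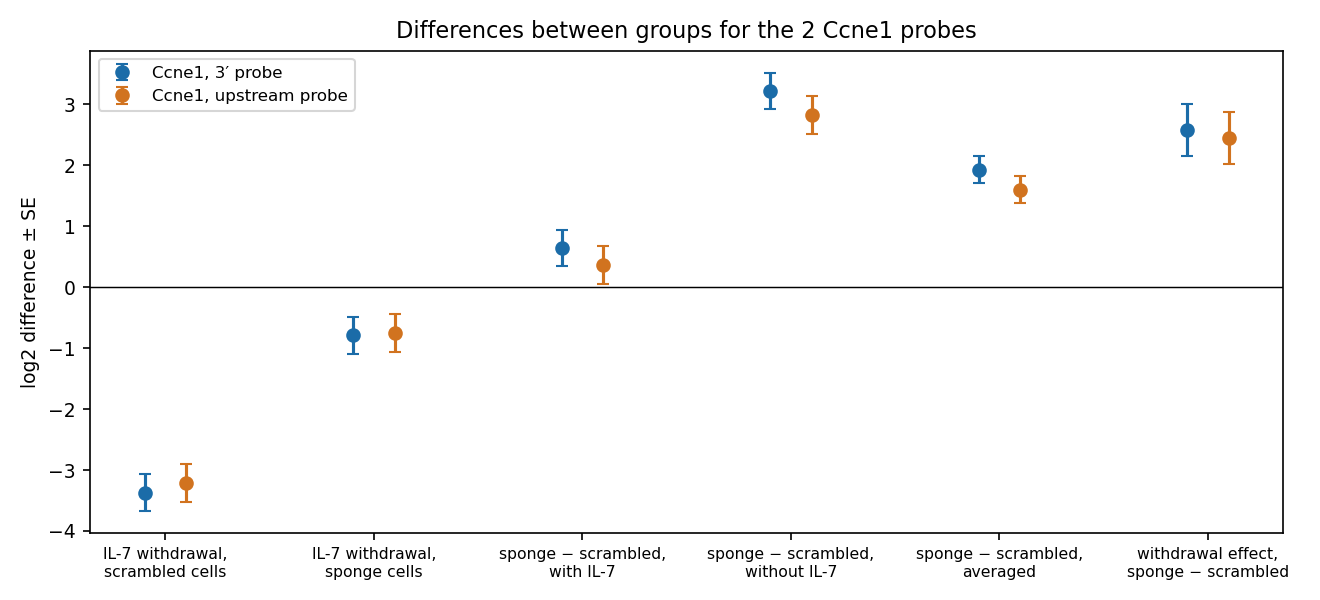
Log2 difference ± SE between groups for the 2 Ccne1 probes, from one limma fit over all kept probes, with 2 arrays per group; zero is no difference. The probes lie close together in each comparison, for example at −3.37 and −3.21 for withdrawal in scrambled cells, and the 3′ probe lies above the upstream probe by the most where sponge and scrambled cells are compared.

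The Ccne1 probes can also be set against each other on the same array, where the scaling between arrays cancels. The log2 signal of the 3′ probe minus that of the upstream probe was 3.80 and 3.98 in scrambled cells with IL-7, 4.11 and 4.20 in sponge cells with IL-7, 3.73 and 3.70 in scrambled cells without IL-7, and 4.07 and 4.17 in sponge cells without IL-7. Every sponge array had a wider gap than every scrambled array. The gap is not a level, since probes bind with different strength, and only its change between arrays is compared. The sponge arrays exceeded the scrambled ones by 0.33 on average. An exact two-sided permutation test of the construct labels within each IL-7 condition gave p = 0.0556, the smallest that its 36 arrangements can give. Among 2996 genes with 2 kept probes, the median absolute change of the gap was 0.10. In 11% the change was at least as large as for Ccne1, and in 5.41% the sponge and scrambled arrays did not overlap. The change was 0.68 with normexp background correction, 0.26 in the deposited value table and 0.38 from raw signal minus local background, with no overlap in any of them. The normexp offset of 50 was near the upstream probe's signal of 68.0 and 36.8 in scrambled cells without IL-7. With it the scrambled gaps ran from 2.37 to 3.67. The offset's part in the 0.68 was not tested.

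**Figure D3:**
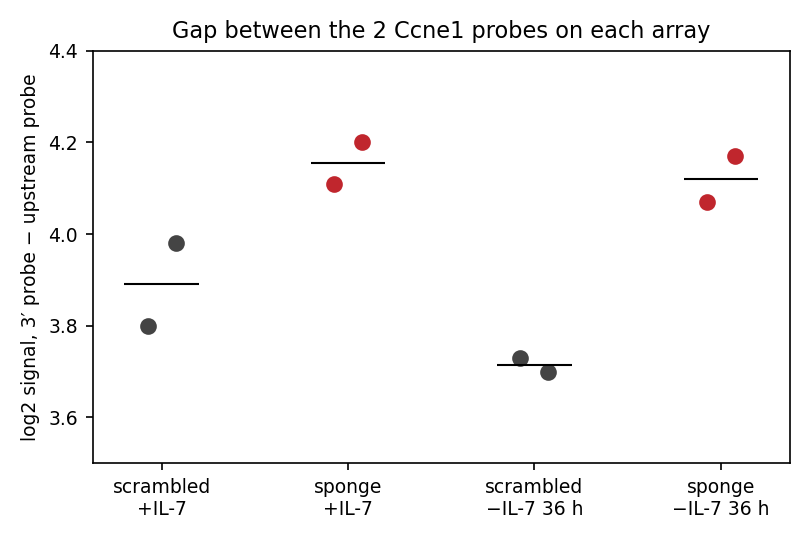
Log2 signal of the Ccne1 3′ probe minus that of the upstream probe on each array (points, 2 per group) with the group mean (lines); the vertical axis does not start at zero. The 4 sponge arrays lie between 4.07 and 4.20, above the 4 scrambled arrays at 3.70 to 3.98.

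Genes around cyclin E were read from 7 lists, together 72 tested genes besides the members. The counts below are set against the shares of all genes given above and the following ones. Those for withdrawal in sponge cells depended on the scaling: 26 of the 72 genes fell, and 13 with quantile normalization. On withdrawal, 20.7% of all genes were called higher in scrambled cells and 7.92% in sponge cells. Between constructs, 15.3% of all genes were called lower in sponge cells without IL-7 and 0.816% with IL-7. The first list holds CDK2 and the proteins that switch it on or off. On withdrawal in scrambled cells 6 of its 11 genes fell and 1 rose (median −1.33, against −0.02 for all genes), and in sponge cells 2 fell (median −0.32, against −0.06). Cdk2, the catalytic partner of cyclin E, fell by 1.56 in scrambled cells (log2, SE 0.14, limma adjusted p = 0.000608) and differed by −0.44 in sponge cells (limma adjusted p = 0.0795). The phosphatase gene Cdc25a, which activates CDK2, fell by 1.34 in scrambled cells and also fell by 0.54 in sponge cells. The kinase gene Wee1, which inhibits it, fell by 1.57 in scrambled cells. The inhibitor genes went separate ways. Cdkn1a, encoding p21, fell by 1.83 in scrambled cells and differed by −0.22 in sponge cells, whereas Cdkn1b, encoding p27, rose by 0.39 in scrambled cells and differed by 0.20 in sponge cells.

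Among 9 genes of cyclin E turnover, 6 fell on withdrawal in scrambled cells and 2 in sponge cells (medians −0.27 and −0.22). Of the 6, the ubiquitin ligase subunit genes Skp1 and Rbx1 changed sign under quantile normalization, and Skp1 lost its call (limma adjusted p = 0.0401) with the experiment as a block (0.0519). Fbxw7, which marks cyclin E for ubiquitination, differed by 0.07 ± 0.07 in scrambled and 0.06 ± 0.07 in sponge cells, and neither passed the test. Skp2, whose protein marks p27 for destruction, fell by 1.99 in scrambled cells and fell by 0.67 in sponge cells, the latter with a limma adjusted p of 0.0468, or 0.0751 with the experiment as a block.

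Of 14 genes that control cyclin E transcription, 10 fell and 1 rose on withdrawal in scrambled cells (median −1.0), and 4 fell in sponge cells (median −0.35). E2f1, an activator of S phase genes, fell by 2.15 in scrambled cells and fell by 0.71 in sponge cells. Myc, which encodes a growth-promoting transcription factor, fell by 2.67 in scrambled cells and fell by 1.57 in sponge cells. Rb1, encoding the retinoblastoma protein, differed by −0.13 ± 0.07 in scrambled cells and did not pass the test, while its relative Rbl1, encoding p107, fell by 1.82. Between constructs without IL-7, 11 of the 14 were higher in sponge cells and 2 were lower (median 0.79, against −0.05 for all genes). Those higher included E2f1 (2.06), Rbl1 (1.78) and Myc (1.04), and those lower were Tfdp2 (−0.63), an E2F partner, and E2f5 (−0.61), which mostly represses. E2f5 was also the single list gene called between constructs with IL-7 (−0.57, limma adjusted p = 0.0386, or 0.0585 with the experiment as a block).

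Cyclin E-CDK2 substrates were represented by 10 of 11 genes, since the probe of Npat, a regulator of histone gene transcription, was above background on 1 array. On withdrawal 6 fell and 2 rose in scrambled cells (median −0.63), and 3 fell in sponge cells (median −0.23). Cdc6, which loads the replicative helicase, fell by 3.05 in scrambled cells and differed by −0.83 in sponge cells (limma adjusted p = 0.0818). Ccp110, a centrosome protein gene, fell by 1.65 in scrambled cells and fell by 0.49 in sponge cells. Mybl2, an S phase transcription factor gene, fell by 2.06 in scrambled cells and fell by 0.52 in sponge cells.

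E2F-regulated S phase genes, a list of DNA replication genes and of regulators such as E2f1 and Ccna2, are the class to which Ccne1 belongs. All 19 fell on withdrawal in scrambled cells (median −2.19, −3.05 to −1.61), and 0 of them fell further than Ccne1. In sponge cells 12 of 19 fell (median −0.73), and 8 of the 19 had a larger difference than Ccne1. Without IL-7, 19 of 19 were higher in sponge than in scrambled cells (median 1.88). Mcm2, a subunit of the replicative helicase, fell by 2.34 in scrambled cells and fell by 0.93 in sponge cells, and the sliding clamp gene Pcna fell by 2.25 in scrambled cells.

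The other cyclins moved in both directions. Of 16 tested, 7 fell and 4 rose on withdrawal in scrambled cells (median −0.18), and 4 fell and 1 rose in sponge cells. Over all genes, 27.4% fell and 20.7% rose in scrambled cells, and 15.2% fell and 7.92% rose in sponge cells. Ccnb2 and Ccni, 2 of the 4 that fell in sponge cells, changed sign under quantile normalization. Cyclin A2, which takes over CDK2 from cyclin E in S phase, is encoded by Ccna2, which fell by 1.61 in scrambled cells, differed by −0.33 in sponge cells and was higher by 1.44 in sponge cells without IL-7. The D-type cyclins act with CDK4 and CDK6 before cyclin E. Ccnd2 fell by 1.05 in scrambled cells and fell by 1.29 in sponge cells, and without IL-7 its sponge minus scrambled difference was −0.57. Ccnd3 fell by 0.68 in scrambled cells, differed by −0.23 in sponge cells, and was higher in sponge cells without IL-7 (0.66). The probe of Ccnd1 was above background on 2 arrays and that of Ccna1 on 0, so neither was tested.

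**Figure D4:**
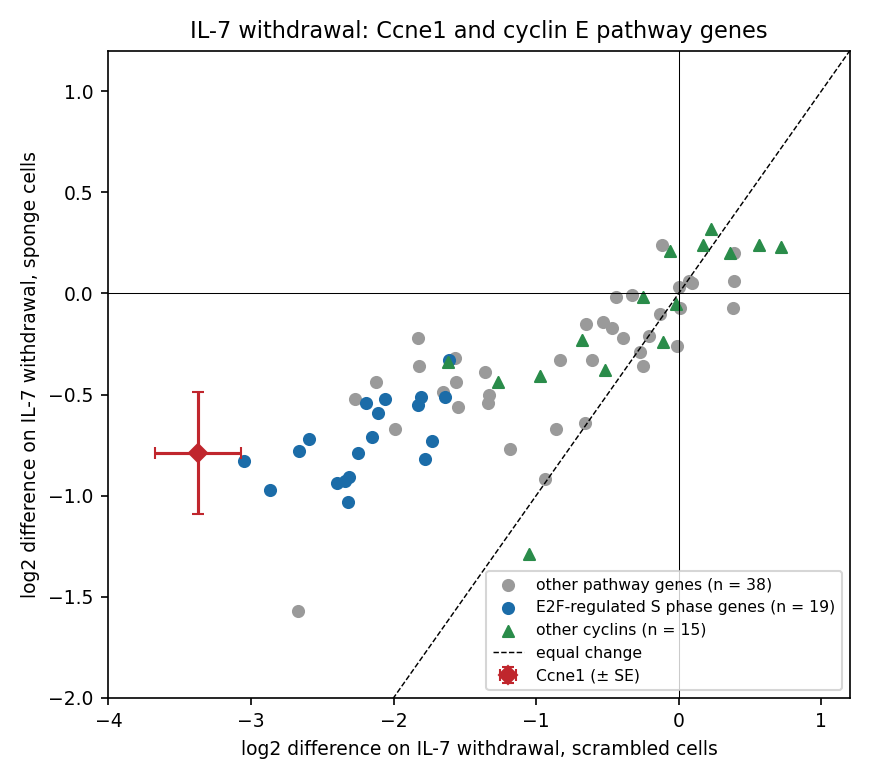
Log2 difference on IL-7 withdrawal in sponge cells (vertical) against that in scrambled cells (horizontal) for Ccne1 (red, ± SE) and the tested genes of the 7 lists; the dashed line marks equal change. Ccne1 lies farthest left, at −3.37 and −0.79, beside the E2F-regulated S phase genes, while Ccnd2 (−1.05 and −1.29) lies below the dashed line.

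Other cell cycle genes published as miR-15 family targets were compared with Ccne1 as targets. Of 6 tested, 5 fell in scrambled cells and 3 in sponge cells (medians −0.95 and −0.59). Between constructs without IL-7, Wee1 (1.81), Cdc25a (1.32) and Ccnd3 (0.66) were higher in sponge cells and Ccnd2 was lower. Cdk6, a kinase of the D-type cyclins, fell by 0.86 in scrambled cells and fell by 0.67 in sponge cells and differed by 0.51 between constructs without IL-7 (limma adjusted p = 0.0559). With IL-7, 0 of the 6 were called by limma (median 0.27, against 0.01 for all genes).

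The genes most like Ccne1 in pattern were sought among 12527 genes with a matched symbol and a probe well above background on all 8 arrays. By Pearson correlation over the 8 arrays they were Ncapg2 (0.9998), Cenpm (0.9998), Cdca5 (0.9997), Nucks1 (0.9993) and Sapcd2 (0.9991). The points share their arrays and fall into 1 low group and 3 high ones, so the values are a description without a test. Ncapg2 is a subunit of condensin II, Cenpm a centromere protein and Cdca5, or sororin, a factor of sister chromatid cohesion. Their withdrawal differences in scrambled cells were −2.18, −1.98 and −1.90, and in sponge cells −0.51, −0.49 and −0.44, smaller than those of Ccne1 in both. The E2F-regulated S phase genes had a median correlation of 0.991 (0.98 to 0.998), against 0.194 for all candidates.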

How the data were processed

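RNA of 8 cultures was hybridised to 1-colour Cy3 Agilent arrays. The deposited scanner tables hold processed intensity per spot on a linear scale, background subtracted and detrended within the array per the file headers, with flags. Extraction used Agilent Feature Extraction 10.7.1.1 per the submitters' processing notes and 10.7.3.1 per the file headers. The deposited value table also holds intensity, with the same distribution in each array. Here control and outlier spots (128 to 277 per array) were removed, each spot's log2 intensity was set against its array's 75th percentile, spots of a probe were averaged, and probes were kept where some group had both its arrays well above background (30959 of 55681). Probes were named through RefSeq tables, 27235 by accession, 3581 by symbol and 565 by synonym, and 24300 stayed unmatched. The brightest kept probe stood for a gene. The 2 Ccne1 probes were also fitted among all kept probes.

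The 4 group means were fitted with limma 3.58.1 (R 4.3.3), two-sided, with Benjamini-Hochberg adjustment over 21316 genes and a threshold of 0.05. A gene counted as called, or as having risen or fallen, when its adjusted p was under 0.05. Simulated data with known changes were used to test the script. Replicates of a group correlated at 0.990 to 0.997. Replicate numbers were taken to pair the groups, because the study's description ties each repetition to an experiment with its own clones. The sample titles give only the number. The deviations of same-numbered arrays correlated at 0.0177 to 0.131. A fit with this replicate block was an alternative, as were other background corrections, scalings, filters, variance models, the deposited value table and leaving out each array.

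Named genes were the members, up to 4 called genes of a list with the smallest adjusted p, 13 genes picked for their role, Blnk and the 5 genes most correlated with Ccne1. Tfdp2 and Skp1 were named after their values were seen. The members and lists were chosen with earlier results of these data known.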

Additional observations from a re-analysis of the deposited data

Results flagged for a closer look

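The withdrawal effect differed between sponge and scrambled cells for Ccne1 and for genes around it, by limma's test of the difference itself. It was 2.58 on the log2 scale for the gene Ccne1 (adjusted p = 0.0354), and over all kept probes 2.58 for the 3′ probe A_51_P408946 (adjusted p = 0.0399) and 2.45 for the upstream probe A_66_P125327 (adjusted p = 0.044). With the replicate block the adjusted p-values were 0.0529, 0.0609 and 0.0595. Without the block, 5.27% of all genes were called for this difference and 4.32% were called higher. Of all these calls, 82% were higher. Of the 72 list genes, 30 were called, all of them higher, and 17 of the 30 were E2F-regulated S phase genes. Among those named in the report the difference was 2.22 for Cdc6 (limma adjusted p = 0.0387), 1.33 for Skp2 (0.0451), 1.46 for Rbl1 (0.0314), 1.28 for Ccna2 (0.0308), 1.12 for Cdk2 (0.0415), 0.82 for Ccnb2 (0.0414) and 0.8 for Cdc25a (0.0341). With a limma adjusted p of 0.0306 each, it was 1.61 for Cdkn1a, 1.54 for Mybl2, 1.46 for Pcna, 1.44 for E2f1, 1.41 for Mcm2, 1.25 for Wee1, 1.15 for Ccp110 and 1.1 for Myc. The genes chosen for their likeness to Ccne1 gave 1.67 for Ncapg2, 1.49 for Cenpm, 1.47 for Cdca5, 1.06 for Nucks1 and 1.02 for Sapcd2 (limma adjusted p = 0.0335, 0.0345, 0.0332, 0.0363 and 0.0451), which the choice by pattern favours. With the replicate block 0 genes were called, and the lowest limma adjusted p among the named genes was 0.0508. In each of them the withdrawal difference was less negative in sponge cells.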

How the results depend on the processing

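For Ccne1, withdrawal in scrambled cells (−3.87 to −2.88, adjusted p up to 0.0107, 20 alternatives), sponge against scrambled without IL-7 (2.73 to 3.72, up to 0.0153, 20 alternatives) and their average over IL-7 (1.68 to 2.18, up to 0.015, 19 alternatives) kept direction and call, and the difference with IL-7 (0.51 to 0.71) never passed. Withdrawal in sponge cells ranged from −0.86 to −0.56 over 20 alternatives (−0.86 to −0.72 leaving out 1 array) and was not called in 16 of them. The alternatives that called it included a variance trend and only its 4 arrays (−0.79 in both). The difference of withdrawal effects (2.09 to 3.08 leaving out 1 array) was 2.58 and not called without a filter on probes (adjusted p = 0.0972), with array weights (0.06) or with the replicate block (0.0529). The block changed no other call for Ccne1. Counts of genes called moved more. Sponge against scrambled with IL-7 had 241, and 388 with normexp, 138 with median scaling, 82 without a filter, 432 with probes above background on all 8 arrays, 151 with the replicate block, 996 with a variance trend, 93 with array weights, 4 with only its 4 arrays, and 38 to 1360 leaving out 1 array. The difference of withdrawal effects had 1123, and 1686 with quantile normalization, 0 by limma without a filter (4746 at an unadjusted p under 0.05), 1716 with probes above background on all 8 arrays, 0 with the replicate block (5105 unadjusted), 2305 with a variance trend, 609 with array weights, and 0 to 1617 leaving out 1 array. Withdrawal in sponge cells had 4938, and 2643 without a filter and 1738 to 5140 leaving out 1 array. Leaving out 1 array gave 6769 to 10353 for withdrawal in scrambled cells, 3415 to 7446 between constructs without IL-7 and 4151 to 7926 averaged. Of the 72 list genes, the call with IL-7 went from 1 to 2 with quantile normalization and to 0 with the replicate block, which also took the 30 calls of the difference to 0. On withdrawal in sponge cells the list calls went from 27 (1 higher, 26 lower) to 18 with quantile normalization (5 higher, 13 lower). The cause was not tested. Scaling moved the share of higher calls: on withdrawal in scrambled cells it was 43%, 51.5% with quantile normalization and 35% with median scaling, in sponge cells 34.2%, 51.5% and 35.7%, and between constructs without IL-7 52.2%, 48.1% and 69%, averaged 53.6%, 49.9% and 68.1%, and in the difference 82%, 73.2% and 91.9%. The planned comparisons of Ccne2, and of Ccne1 against Ccne2, gave no value because the Ccne2 probe was not well above background on any array. With 2 arrays a group, precision is limited by their number.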

Other observations

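The Ccne1 3′ probe was one of 52 kept probes with the 8-base site TGCTGCTA, a set looked at after the data were seen and described without a test. Between constructs without IL-7, 18 of the 52 (34.6%) were higher in sponge cells and 4 (7.69%) were lower, against 15.4% and 14.5% of all kept probes. The median difference was 0.18, against −0.06 for all kept probes, and the Ccne1 probe ranked 5th of the 52. With IL-7, 5 were higher and 1 was lower (median 0.20, against 0.01), in a comparison where 0.187% of kept probes were called higher. The 338 kept probes with the 7-base match include these 52, so the sets are not independent, and lay closer to all kept probes. Without IL-7, 19.5% were higher and 8.58% lower (median 0.11), and with IL-7, 2.37% were higher (median 0.11). In the difference of withdrawal effects 3.85% of the 8-base set and 2.07% of the 7-base set were higher, against 3.41% of all kept probes, and the Ccne1 probe had the largest difference in both sets. A match inside a 60-base probe leaves out sites elsewhere in the transcript.

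The promoter of Ccne1, 300 bases around its start in the RefSeq table (GRCm38.p6, chr7:38107441-38107740, minus strand, GC content 76%), was searched on both strands for the E2F motifs TTTCCCGC, TTTCGCGC, TTTGGCGC and TTTGCCGC and for the E-box CACGTG, none of which contains another. None of the 5 was found in this window. Only exact copies were searched, so other forms of these sites, and sites outside the window, were not assessed. At least 1 of the 4 E2F motifs occurs in 2.26% of the 32851 promoters of the same length, and CACGTG in 7.15%.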
